A study of Homo sapiens with 9 samples.

Results

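Interleukin genes and the genes of their receptors were followed in macrophage-like cells made from THP-1, a monocytic line from a human leukaemia. They were taken as the named rows of the array table whose symbol is an interleukin or interleukin receptor symbol, or begins with TNFSF or TNFRSF and a number, with 1 interleukin gene left out by the same rule. This gave 43 of 14884 named genes, measured by 44 rows. Of these, 26 encode interleukins or interleukin-like antagonists and 15 encode receptor chains. The other 2 are non-coding transcripts named after neighbouring TNF receptor genes, TNFRSF10A-DT (a divergent transcript) and TNFRSF14-AS1 (an antisense transcript). No named row carried a TNFSF symbol or the symbol of a TNFRSF protein gene, so the TNF side of the set is these 2 transcripts alone.

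All 9 cultures were grown in RPMI medium with fetal bovine serum and differentiated with PMA (phorbol 12-myristate 13-acetate) to an M0 macrophage-like state. They then received vehicle, cisplatin at 0.5 µM (a platinum drug that crosslinks DNA) or osimertinib at 100 nM (an inhibitor of the epidermal growth factor receptor), and RNA was taken 16 h later. Each group had 3 replicates that the labels call biological, each on its own Affymetrix Human Gene 2.0 ST array, and every culture came from the same cell line. Levels are the deposited gene-level values, read as log2, so a difference of 1 is a doubling in signal.

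Interleukins are secreted signals between immune cells, and each acts through a complex of receptor chains, several of which are shared between complexes. Receptors of the IL-1 family signal through MYD88 and IRAK kinases, those of the IL-17 family through TRAF adaptors, and most others through JAK kinases and STAT factors. Macrophages both secrete interleukins and respond to them, and soluble antagonists such as IL-1Ra and IL-36Ra occupy a receptor without activating it.

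Of the 43 genes, 12 had a mean over the 9 arrays at or above 4.28, the median of all named genes. They were tested among the 7442 genes at or above that limit, which is not a detection threshold. The gene just inside the limit was IL36RN, with a mean of 4.33, and the gene just outside it was IL21R, with 4.06. For IL36RN, IL20RB, IL18 and IL24 the mean of at least 1 group lay below the limit, so their inclusion depended on the group where they were high. Counts over the 12 are therefore given as a description. With cisplatin 6 of the 12 passed the test, 5 higher and 1 lower, where 31.0% of all tested genes passed, 16.5% higher and 14.5% lower. With osimertinib 6 passed, again 5 higher and 1 lower, where 30.6% of tested genes passed, 16.9% higher and 13.7% lower. Between the drugs 2 passed and 0 of them was higher with osimertinib, where 1.75% of tested genes passed, 0.766% higher and 0.981% lower. The arrays of the 2 groups did not overlap for 8 of the 12 with cisplatin against vehicle, 7 with osimertinib against vehicle and 6 between the drugs, where 42.3%, 44.1% and 14.3% of tested genes did not overlap. The median difference of the 12 from vehicle was 0.27 with cisplatin and 0.21 with osimertinib, and over all tested genes it was 0.032 and 0.037. Both comparisons use the same 3 vehicle arrays, so they are not independent of each other. In RNA from whole cultures, a change in level per cell and a change in the share of cells that express a gene cannot be told apart.

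**Figure D1:**
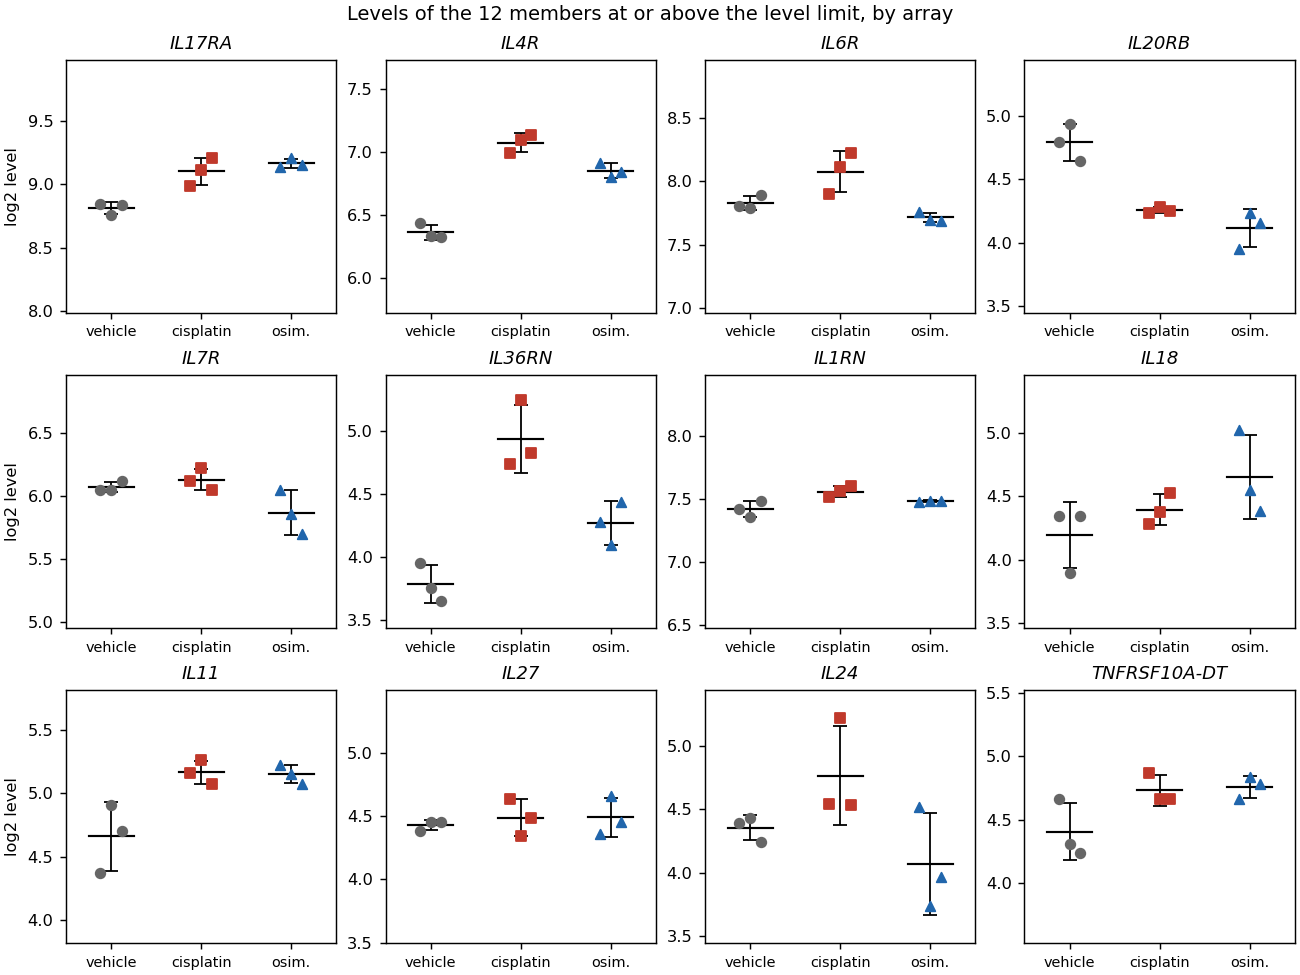
Log2 level (vertical axis, every panel spanning 2 log2 units) of the 12 genes at or above the level limit, by treatment group (horizontal axis; osim. is osimertinib). Each point is 1 array, horizontal lines are group means and bars are the SD of 3 arrays; IL4R, IL17RA, IL11 and IL36RN lie higher in both drug groups than with vehicle, IL20RB lies lower, and IL6R is high with cisplatin alone.

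Printed here are the 250 bases before the start used by the RefSeq promoter table (GRCh38.p14), for the 5 interleukin or receptor genes among the 12 that passed a test and have an entry there. They are shown because 3 of these genes rose with both drugs (IL4R, IL11 and IL36RN), 1 fell with both (IL20RB) and 1 rose with cisplatin alone (IL6R). IL6R and IL36RN also differed between the drugs. Each reads 5′ to 3′ on the strand of its gene. Capitals mark matches on either strand to 4 motifs: the AP-1 site TGANTCA, the STAT site TTCNNNGAA, the same site with 1 more N between TTC and GAA (the spacing that STAT6 prefers), and the NF-kB consensus. No 2 matches overlap in these windows.
IL4R (chr16:27313724-27313973, plus strand): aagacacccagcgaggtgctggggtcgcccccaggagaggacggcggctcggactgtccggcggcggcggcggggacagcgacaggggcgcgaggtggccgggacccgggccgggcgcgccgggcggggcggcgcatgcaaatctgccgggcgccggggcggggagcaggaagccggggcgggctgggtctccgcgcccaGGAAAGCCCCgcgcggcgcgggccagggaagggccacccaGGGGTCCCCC
IL36RN (chr2:113058388-113058637, plus strand): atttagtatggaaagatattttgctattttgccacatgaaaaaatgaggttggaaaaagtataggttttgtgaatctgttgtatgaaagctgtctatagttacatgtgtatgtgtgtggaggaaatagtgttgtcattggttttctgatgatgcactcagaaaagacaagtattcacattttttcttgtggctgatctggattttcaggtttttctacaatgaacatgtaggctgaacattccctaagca
IL11 (chr19:55370464-55370713, minus strand): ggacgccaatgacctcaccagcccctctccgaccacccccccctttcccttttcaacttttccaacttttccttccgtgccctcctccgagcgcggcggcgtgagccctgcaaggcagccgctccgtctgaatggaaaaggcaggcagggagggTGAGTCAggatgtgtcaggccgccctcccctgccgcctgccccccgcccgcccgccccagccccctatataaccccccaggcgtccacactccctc
IL20RB (chr3:136957733-136957982, plus strand): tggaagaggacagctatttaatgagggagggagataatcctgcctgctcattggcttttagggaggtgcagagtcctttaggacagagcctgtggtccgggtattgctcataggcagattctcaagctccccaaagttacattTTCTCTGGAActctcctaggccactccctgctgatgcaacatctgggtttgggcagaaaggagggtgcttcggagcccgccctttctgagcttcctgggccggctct
IL6R (chr1:154405093-154405342, plus strand): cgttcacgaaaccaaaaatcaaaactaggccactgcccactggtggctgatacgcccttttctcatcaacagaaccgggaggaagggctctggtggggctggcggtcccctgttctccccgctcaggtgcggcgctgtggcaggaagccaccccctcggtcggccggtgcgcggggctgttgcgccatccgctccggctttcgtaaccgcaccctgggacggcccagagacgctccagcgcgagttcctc
The window of IL4R was rich in G and C (80.8%) and held 2 matches to the NF-kB consensus. Of all 35116 promoter windows of this length, 10.0% held at least 1 such match and 1.72% held 2 or more. Those windows were not matched for G and C, so these shares are not for windows as rich in them. The RefSeq gene model of IL4R begins at 27313756, upstream of the start used for its window, so 218 of the 250 bases, both matches included, lie inside the annotated gene. The other 4 windows end where the annotated gene begins. The window of IL11 held 1 AP-1 site, from 96 to 90 bases before the start, a motif found at least once in 6.6% of all windows. The window of IL20RB held 1 site of the STAT6 spacing, from 107 to 98 bases before the start, a motif found at least once in 5.4% of windows. The windows of IL36RN (34.4% G and C) and IL6R (65.2%) held none of the 4 motifs, which says only that these letters do not occur there. A match is a string of letters and no evidence of binding. In all, 31 of the 43 genes had an entry in the table. IL21R, called only in the model over all named genes that is given with the dim genes, is among them but is not printed: its window lies wholly inside the annotated gene and held 0 matches.

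Among receptor genes, IL4R had the smallest F test p of the 12 genes over the 3 groups (1.23e-06). It encodes the alpha chain through which IL-4 and IL-13 signal in macrophages. The vehicle arrays read 6.43, 6.33 and 6.33 (log2 level), the cisplatin arrays 6.99, 7.09 and 7.14, and the osimertinib arrays 6.92, 6.80 and 6.84. All 6 drug-treated arrays lay above all 3 vehicle arrays, and the cisplatin arrays lay above the osimertinib arrays. The gene rose with cisplatin 1.63-fold (difference 0.71, SE 0.076, limma adjusted p = 1.7e-05, n = 3 and 3). It rose with osimertinib 1.40-fold (0.49, SE 0.076, adjusted p = 0.000322). The difference between the drugs, osimertinib minus cisplatin, was -0.22 with a 95% interval from -0.39 to -0.057 and did not pass after adjustment over all genes (adjusted p = 0.23).

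IL17RA encodes the receptor chain shared by several IL-17 cytokines. Vehicle arrays stood at 8.84, 8.76 and 8.84, cisplatin arrays at 8.99, 9.11 and 9.21, and osimertinib arrays at 9.14, 9.21 and 9.15. The vehicle arrays were again the 3 lowest, while the 2 drug groups overlapped. The rise was 1.22-fold with cisplatin (0.29, SE 0.058, adjusted p = 0.00198) and 1.28-fold with osimertinib (0.36, SE 0.058, adjusted p = 0.000449). Between the drugs the interval ran from -0.061 to 0.19 (adjusted p = 0.76). The other measured chain of this family, IL17RB, lay below the level limit.

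IL20RB, a chain of the receptors for IL-19, IL-20 and IL-24, was the tested interleukin receptor gene that fell with both drugs. Its level was 4.79, 4.94 and 4.64 in vehicle cultures, 4.24, 4.28 and 4.25 after cisplatin, and 3.95, 4.24 and 4.15 after osimertinib. No drug-treated array reached the lowest vehicle array. The fall was 1.45-fold with cisplatin (-0.54, SE 0.12, adjusted p = 0.0035) and 1.60-fold with osimertinib (-0.68, SE 0.12, adjusted p = 0.000636). The drugs differed by -0.14, with an interval from -0.40 to 0.11 (adjusted p = 0.726). The means of both drug groups, 4.26 and 4.11, were below the level limit, where signal cannot be told from background. IL20RB was tested because its vehicle group was high, so its folds are differences in signal.

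IL6R, the ligand-binding chain of the IL-6 receptor, differed between the drugs. Vehicle arrays read 7.80, 7.79 and 7.90, cisplatin arrays 7.90, 8.11 and 8.22, and osimertinib arrays 7.76, 7.70 and 7.69. Every osimertinib array lay below every vehicle array, and every cisplatin array lay above, though cisplatin replicate 1 exceeded the highest vehicle array by very little. The gene was higher with cisplatin than with vehicle 1.19-fold (0.25, SE 0.078, adjusted p = 0.0278). With osimertinib the difference from vehicle was -0.11 with an interval from -0.28 to 0.054 (adjusted p = 0.297). Osimertinib minus cisplatin was -0.36 (SE 0.078, adjusted p = 0.0341). Both calls were marginal: without cisplatin replicate 3 the difference from vehicle was 0.175 (adjusted p = 0.136) and that between the drugs -0.29 (adjusted p = 0.147). The call against vehicle also ended without cisplatin replicate 2, vehicle replicate 1 or vehicle replicate 2, and the call between the drugs ended without any single array other than cisplatin replicate 1.

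The fifth tested receptor gene, IL7R, encodes the alpha chain of the IL-7 receptor and did not pass in any comparison. Its group means were 6.07 ± 0.039 (vehicle), 6.13 ± 0.084 (cisplatin) and 5.87 ± 0.17 (osimertinib; SD, n = 3 each). The highest osimertinib array equalled the middle vehicle array at 6.05. Osimertinib minus vehicle had an adjusted p of 0.15, and it passed at -0.291 (0.0481) without osimertinib replicate 1 and at -0.234 (0.0484) after centring arrays on the median. Osimertinib minus cisplatin was -0.26 with an interval from -0.48 to -0.045 (adjusted p = 0.292).

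Among ligands and antagonists, IL36RN encodes IL-36Ra, the natural antagonist of the IL-36 receptor. Its mean lay below the level limit with vehicle (3.79) and osimertinib (4.27), where signal cannot be told from background, and it was tested because its cisplatin group was high. Its folds are therefore differences in signal. It stood at 3.96, 3.76 and 3.66 in vehicle cultures, 4.74, 5.25 and 4.82 after cisplatin, and 4.28, 4.10 and 4.44 after osimertinib. The 3 groups did not overlap, with osimertinib between vehicle and cisplatin. The gene rose 2.21-fold with cisplatin (1.15, SE 0.15, adjusted p = 7.34e-05) and 1.40-fold with osimertinib (0.48, SE 0.15, adjusted p = 0.0249). It was lower with osimertinib than with cisplatin by 1.59-fold (-0.67, SE 0.15, adjusted p = 0.0393). The cisplatin call held on leaving out any single array, with a highest adjusted p of 0.000767. The level limit was not redrawn in those fits, so IL36RN stayed among the tested genes whichever array was left out. The osimertinib call ended without vehicle replicate 2 or 3 or osimertinib replicate 1 or 3, with a highest adjusted p of 0.0951 and a lowest difference of 0.398 (without osimertinib replicate 3). The call between the drugs ended without any single array other than vehicle replicate 1 and cisplatin replicate 1, with adjusted p up to 0.157.

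IL11 encodes a cytokine that signals through the gp130 chain, as IL-6 does. Vehicle arrays read 4.37, 4.91 and 4.70, cisplatin arrays 5.16, 5.26 and 5.08, and osimertinib arrays 5.22, 5.16 and 5.08. Vehicle replicate 1 was the lowest array, and the 6 drug-treated arrays lay above the vehicle arrays within a span narrower than that of the vehicle group. It rose 1.42-fold with cisplatin (0.51, SE 0.13, adjusted p = 0.00939) and 1.41-fold with osimertinib (0.49, SE 0.13, adjusted p = 0.0112). Without vehicle replicate 1 the differences were 0.362 (adjusted p = 0.0404) and 0.346 (adjusted p = 0.0489). The interval of the difference between the drugs ran from -0.30 to 0.27 (adjusted p = 0.98).

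**Figure D2:**
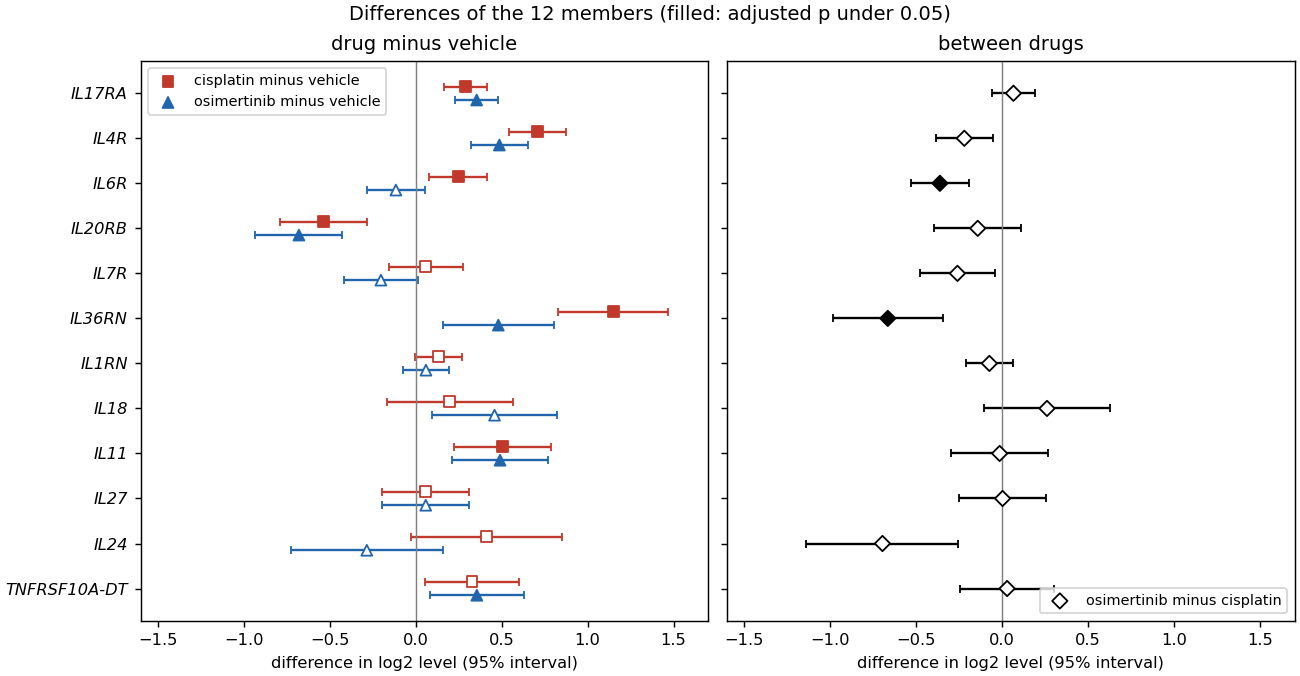
Difference in log2 level (horizontal axis) with its 95% interval for the 12 tested genes (vertical axis), each drug minus vehicle on the left and osimertinib minus cisplatin on the right. Filled symbols passed at an adjusted p under 0.05; on the right these are IL6R (-0.36) and IL36RN (-0.67), and the interval of IL24 is the widest.

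The remaining ligands did not pass in the reported fit. IL1RN encodes IL-1Ra, the antagonist of the IL-1 receptor. Its vehicle, cisplatin and osimertinib means were 7.42 ± 0.064, 7.56 ± 0.041 and 7.48 ± 0.0063 (SD, n = 3 each). Its cisplatin arrays lay above its vehicle arrays, and the difference was 0.135 (adjusted p = 0.126), or 0.176 (0.0242) with quantile normalization on top. IL18, a cytokine released after caspase cleavage, was at 4.19 ± 0.26, 4.39 ± 0.12 and 4.65 ± 0.33 in the same order. Osimertinib minus vehicle was 0.46, with an interval from 0.093 to 0.83 (adjusted p = 0.0561). It passed at 0.536 (0.0232) with quantile normalization on top and at 0.595 (0.0261) without osimertinib replicate 3. IL27, a gene for 1 chain of the cytokine IL-27, was at 4.43 ± 0.041, 4.49 ± 0.15 and 4.49 ± 0.15, with overlapping groups.

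IL24, a ligand of receptors that contain IL20RB, spread most within groups. Vehicle arrays read 4.39, 4.43 and 4.24, cisplatin arrays 4.54, 5.22 and 4.54, and osimertinib arrays 4.52, 3.73 and 3.96. All osimertinib arrays lay below all cisplatin arrays. The difference of -0.70, with an interval from -1.14 to -0.26, did not pass (adjusted p = 0.135), and was -0.92 (0.0497) without osimertinib replicate 1.

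Of the transcripts named after TNF receptor genes, TNFRSF10A-DT was tested and TNFRSF14-AS1 lay below the limit. TNFRSF10A-DT read 4.66, 4.31 and 4.24 in vehicle cultures, 4.87, 4.66 and 4.66 after cisplatin, and 4.66, 4.84 and 4.78 after osimertinib. The value 4.66 was identical on 4 arrays, 1 of them vehicle, so no drug group was fully separate from vehicle. The transcript was called higher with osimertinib (0.36, SE 0.13, adjusted p = 0.049), and with cisplatin the difference was 0.33 (adjusted p = 0.0679), which passed without vehicle replicate 1 (0.457, 0.0162) and with quantile normalization on top (0.395, 0.0279). The osimertinib call ended without any single array other than vehicle replicate 1 and cisplatin replicate 1, with adjusted p up to 0.176. It also ended with the replicate number as a block (0.059) and after centring arrays on the median (0.103).

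Detection was not measured for any gene, so low signal on either side of the level limit cannot be told from background. The other 31 genes lay below that limit. They include the 5 IL-1 family receptor genes of the set (SIGIRR, a receptor of that family whose symbol falls outside the rule, was at 5.32 with vehicle and did not pass), all 4 IL-17 cytokines, all 6 cytokines of the common gamma chain and IL-4 group, and 4 of the 5 genes grouped with IL-24. In the model over all 14884 named genes, 1 of the 31 passed with cisplatin, 0 with osimertinib and 0 between the drugs. At an unadjusted p under 0.05, 2 genes passed with cisplatin, 2 with osimertinib and 0 between the drugs, where 12.3%, 11.9% and 5.25% of all genes below the limit did. Of all genes below the limit, 4.18% passed in that model with cisplatin, 4.10% with osimertinib and 0.0672% between the drugs.

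The gene that passed was IL21R, the receptor for IL-21. Vehicle arrays read 3.82, 3.42 and 3.77, cisplatin arrays 4.07, 4.47 and 4.62, and osimertinib arrays 4.37, 4.24 and 3.73. The cisplatin arrays lay above the vehicle arrays, and the osimertinib arrays overlapped both groups. The difference with cisplatin was 0.71 (SE 0.19, adjusted p = 0.0261) and that with osimertinib 0.44 (adjusted p = 0.164). Without vehicle replicate 2 or 3 or cisplatin replicate 2 or 3, 0 of the 31 passed with cisplatin. IL18R1, the binding chain of the IL-18 receptor, was the other gene with an unadjusted p under 0.05 in each comparison with vehicle. It read 2.78, 2.69 and 2.91 in vehicle cultures, 2.66, 2.46 and 2.48 after cisplatin, and 2.46, 2.54 and 2.42 after osimertinib, lower on every drug-treated array. Its differences were -0.26 (adjusted p = 0.12) and -0.32 (adjusted p = 0.0539).

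**Figure D3:**
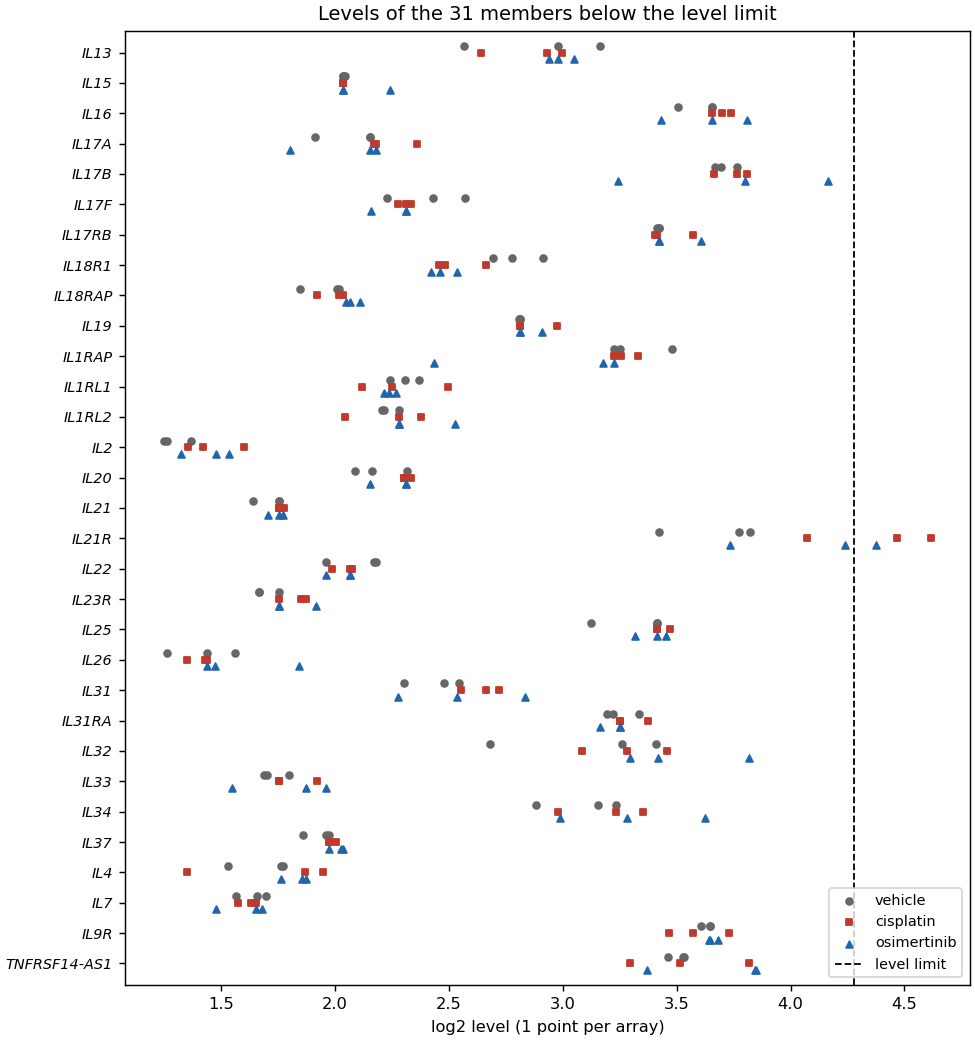
Log2 level (horizontal axis) of the 31 genes below the level limit (vertical axis, alphabetical), 1 point for each of 9 arrays, coloured by group. The dashed line is the limit of 4.28; only IL21R has arrays to the right of it, and most genes show overlapping groups and several coinciding points.

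Levels of the other dim genes with vehicle are given by role (mean ± SD, n = 3), and the rows cannot be ranked against each other because each has its own probes. In the IL-1 family, IL1RAP, the shared accessory chain, was at 3.32 ± 0.14 and IL1RL1, the receptor for IL-33, at 2.31 ± 0.065. The ligands IL37 and IL33 were at 1.93 ± 0.063 and 1.73 ± 0.060. Of the IL-17 cytokines, IL17B was at 3.71 ± 0.049, IL25 at 3.32 ± 0.17 and IL17F at 2.41 ± 0.17, and the receptor IL17RB was at 3.42 ± 0.0035. Of the gamma chain and IL-4 group, IL13 was at 2.90 ± 0.31, IL15 at 2.04 ± 0.0046 and IL21 at 1.72 ± 0.066, and the receptor IL9R was at 3.63 ± 0.024. IL16, a chemoattractant for CD4+ cells, was at 3.61 ± 0.087, IL32 at 3.12 ± 0.39 and IL34, a second ligand of the CSF1 receptor, at 3.09 ± 0.19. IL31RA was at 3.25 ± 0.075, its ligand IL31 at 2.44 ± 0.12, IL19 at 2.81 ± 0.0042, IL20 at 2.19 ± 0.12 and TNFRSF14-AS1 at 3.51 ± 0.040. None of these genes passed in any comparison, and the largest difference between the drugs among the 31 was 0.327 in size, in IL1RAP.

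The downstream genes of these receptors were read from 6 lists with 102 genes, of which 71 were named and 52 tested. Together 15 of the 52 passed with cisplatin, 13 with osimertinib and 0 between the drugs, where 31.0%, 30.6% and 1.75% of all tested genes did. With cisplatin the count fell to 5 without vehicle replicate 2, 6 without vehicle replicate 3, 8 without cisplatin replicate 2 and 6 without cisplatin replicate 3. With osimertinib it fell to 6 and 7 without vehicle replicates 2 and 3, and to 5 and 4 without osimertinib replicates 1 and 2. At an unadjusted p under 0.05, limma found 22 of the 52 with cisplatin, 21 with osimertinib and 2 between the drugs. The share of all tested genes at that threshold was not counted, so these counts cannot be read as an excess. Against vehicle such p-values were common among all tested genes. By limma, TRAF1 with cisplatin had 0.0451 before adjustment and 0.114 after, and TOLLIP with osimertinib 0.0488 and 0.122. Of family genes whose symbols fall outside the rule, 6 were tested and RELT, an orphan TNF receptor family member, rose with cisplatin (0.31, adjusted p = 0.0456). TNF itself did not pass (-0.17 with cisplatin and -0.098 with osimertinib). The median difference from vehicle of these 6 was 0.043 with cisplatin and -0.074 with osimertinib, beside 0.032 and 0.037 for all tested genes.

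Among adaptors of the Toll/IL-1 and IL-17 receptors, 11 were tested. With cisplatin 3 rose and 2 fell, with a list median of 0.085, and with osimertinib 4 rose and 2 fell, with a median of 0.11. Of all tested genes 16.5% rose and 14.5% fell with cisplatin and 16.9% and 13.7% with osimertinib, with medians of 0.032 and 0.037, and these values are the background for each list that follows. IRAK2, a kinase of the IL-1 receptor complex, fell with cisplatin (-0.33, SE 0.10, adjusted p = 0.0278) and with osimertinib (-0.61, SE 0.10, adjusted p = 0.000518). IRAK3, an inhibitory member of the same kinase family, fell by 0.32 and 0.26 (adjusted p = 0.00945 and 0.0268). PELI1, a ubiquitin ligase that acts on IRAK1, rose by 0.42 and 0.45 (adjusted p = 0.014 and 0.00926). MAP3K7, which encodes the kinase TAK1, rose by 0.23 and 0.21 (adjusted p = 0.0217 and 0.0326).

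Of 12 TNF receptor adaptors, 1 rose and 2 fell with cisplatin (median -0.021) and 1 rose and 1 fell with osimertinib (median 0.099), beside 31.0% and 30.6% of all tested genes called. FADD, which links death receptors to caspase-8, rose by 0.39 and 0.64 (adjusted p = 0.0498 and 0.00376), and with cisplatin its arrays overlapped those of vehicle. CFLAR, the inhibitor of caspase-8 at the same complex, fell with cisplatin (-0.38, adjusted p = 0.0141) and was at -0.27 with osimertinib (adjusted p = 0.0619). TRAF3, a brake on non-canonical NF-kB signalling, fell by 0.36 with each drug (adjusted p = 0.0215 and 0.0231). Of the NF-kB list the 6 tested genes were the subunits NFKB1, NFKB2, RELA, RELB and REL and the activating kinase CHUK. By limma 0 passed with either drug (medians -0.10 and -0.013), and 1 and 0 had an unadjusted p under 0.05, again without a background share at that threshold.

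Of 10 JAK kinases, STAT factors and SOCS inhibitors, 2 rose and 1 fell with cisplatin (median 0.10), and 2 rose and 0 fell with osimertinib (median 0.11), against the same 31.0% and 30.6%. JAK2, which serves many cytokine receptors, rose by 0.46 and 0.61 (adjusted p = 0.021 and 0.00407), and STAT5A rose by 0.61 and 0.65 (adjusted p = 0.0207 and 0.0148). With cisplatin the JAK2 arrays overlapped those of vehicle. SOCS7 fell with cisplatin (-0.49, adjusted p = 0.00675) and was at -0.27 with osimertinib (adjusted p = 0.101). Of 7 processing and shedding enzymes, 2 rose and 1 fell with each drug (medians -0.0056 and 0.18). PYCARD, the inflammasome adaptor ASC, rose by 0.40 with both (adjusted p = 0.032 and 0.0317), and ERAP1, an aminopeptidase, fell by 0.33 and 0.29 (adjusted p = 0.0163 and 0.031). The cisplatin arrays of PYCARD overlapped those of vehicle. GSDMD, the pore protein through which IL-1β can leave cells, rose with cisplatin (0.36, adjusted p = 0.042). ADAM10, a sheddase of membrane receptors, rose with osimertinib (0.18, adjusted p = 0.025).

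**Figure D4:**
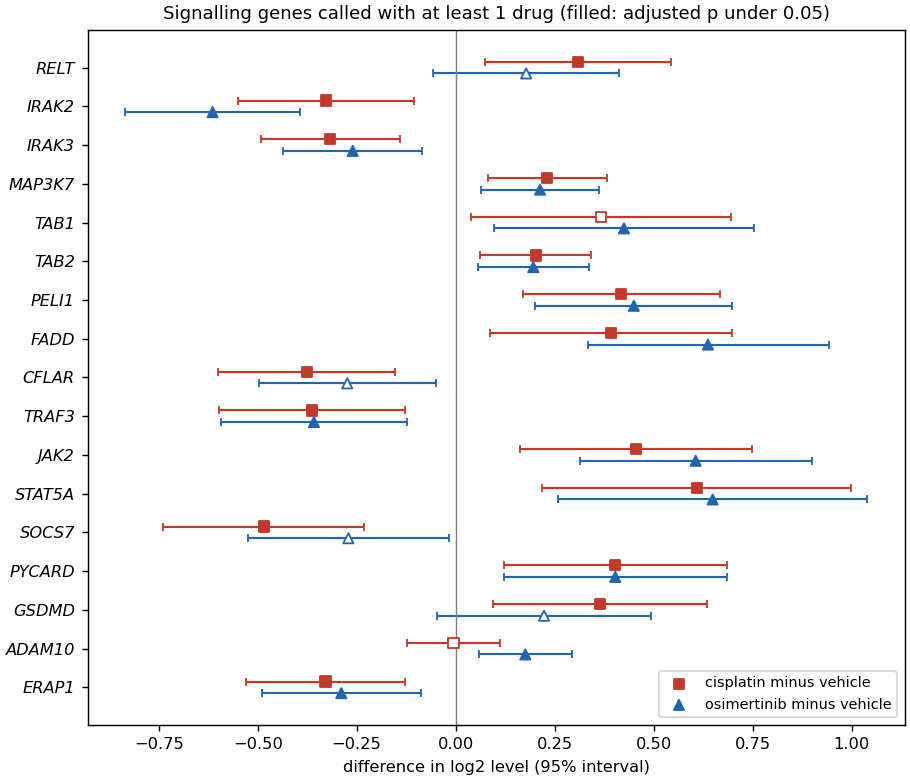
Difference in log2 level from vehicle (horizontal axis) with its 95% interval for the 17 signalling genes that passed with at least 1 drug (vertical axis), cisplatin as squares and osimertinib as triangles, filled where they passed. TAB1 and TAB2, partners of MAP3K7, complete the adaptor list; most points of the 2 drugs lie on the same side of 0, and 0 of the 52 tested genes passed between the drugs.

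The macrophage label was read from a marker list of which 6 of 12 genes were named. CD68 and CSF1R rose with both drugs (by 0.51 and 0.50 with cisplatin, and 0.30 and 0.29 with osimertinib), SPI1 and TYROBP did not pass, CD14 was at 4.22 with vehicle, and LYZ was below the level limit at 3.12. The summed level of the 6 markers was 39.8 to 40.4 with vehicle, 40.8 to 42.0 with cisplatin and 40.6 to 41.6 with osimertinib, so it was higher on every drug-treated array, as were IL4R, IL17RA, IL11 and IL36RN. The part of this in their rise was not tested. Genes of other marker lists were also higher on every drug-treated array, without passing. With cisplatin and osimertinib NKG7 (T and NK cell) differed by 0.35 and 0.30 and KRT8 (epithelial) by 0.27 and 0.22. PAX5 (B cell) differed by 0.32 and 0.35 with overlapping arrays, and CD8A by -0.021 and 0.0078. Markers of other cells were few: 3 of 7 T and NK cell genes were named (sums 11.5 to 12.6 over all arrays), 1 of 5 B cell genes (4.13 to 4.78), 4 of 5 granulocyte precursor genes (13.2 to 14.5), 4 of 5 epithelial genes (17.6 to 18.9) and 2 of 5 fibroblast genes (3.21 to 3.71). Fibroblast markers had no gene above the limit. The other lists had CD8A, NKG7, PAX5, AZU1, KRT8 and KRT18 above it. With vehicle CD68 was at 9.44, CSF1R at 8.57, TYROBP at 7.49 and SPI1 at 7.21. CD8A, NKG7, PAX5, AZU1 and KRT8 were at 4.27 to 4.49 there, near the limit. Each row has its own probes, so these levels alone do not name the cell type. Of the genes from the other lists above the limit, KRT18, at 7.705 with vehicle, alone passed, lower with each drug. The 9 arrays had medians of 3.29 to 3.37 over all rows and correlated at 0.943 to 0.991 over the tested genes.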

How the data were processed

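The table of the 9 arrays holds gene-level values that a service provider made with standard Affymetrix pipelines, per the labels' design text. Per the submitters' processing notes, Affymetrix Power Tools was used (no version). How background was corrected and probes summarized is not stated, nor is the log base. The deposited values run from 0.65 to 13.17 and were therefore taken as log2. Normalization between arrays by the authors is seen in the values, which differ at equal rank by 0.0929 on average from the lowest to the highest array, and it hides a shift common to most genes.

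Of 53617 rows, 16098 (30.0%) had 1 gene in the platform annotation, which can be old, and 0 had several. All Entrez identifiers matched RefSeq (GRCh38.p14). The brightest row stood for a gene. limma 3.58.1 in R 4.3.3 fitted 3 group means over all 9 arrays, with empirical Bayes (trend, robust). Two-sided p-values were adjusted (Benjamini-Hochberg) across the 7442 genes at or above the level limit and called under 0.05. Fold changes are relative to the array bulk. Depth does not exist for arrays, and their number limits precision. On simulated data with 200 changed genes among 7442, a change of 0.5 was recovered in 65.7% of genes (cisplatin and vehicle), 68.7% (osimertinib and vehicle) and 71.6% (between drugs), and a change of 0.25 in 6.0%, 9.0% and 7.5%. In the data many more genes were called against vehicle, 2308 with cisplatin and 2277 with osimertinib. The adjustment was less strict there, so the simulated shares do not apply to the comparisons with vehicle.

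Values on all arrays are given for genes called in any comparison, chosen by that rule, and other genes were named by role. Up to 4 signalling genes of a list, those with the smallest F test p, were named. IL21R, IL18R1, IL24, TAB1, TAB2 and TNF were singled out after their values were seen. The members and lists were chosen with earlier results of these data known. No pairing by replicate number was visible: same-numbered arrays correlated at -0.23 to 0.13 in their deviations from group means. Such correlations cannot show that the cultures were unpaired. Alternatives covered normalization, the level limit, the variance model, several rows per gene, a replicate block and each array left out.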

Additional observations from a re-analysis of the deposited data

How the results depend on the processing

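In the comparisons with vehicle, IL4R, IL17RA, IL11 and IL20RB kept direction and call with both drugs, and IL36RN with cisplatin, under every alternative in which they were tested. Only IL17RA, IL4R and IL6R of the called genes lie above a limit at the upper quartile, which left 3 members called with cisplatin, 2 with osimertinib and 1 between the drugs. On leaving out each array the members called were 5 to 6 with cisplatin, 4 to 6 with osimertinib and 0 to 2 between the drugs. Between the drugs 0 were called without a level limit, 0 without trend and robust fitting, and 1 with the replicate block. Without a level limit IL36RN with osimertinib (adjusted p = 0.0519) and IL6R with cisplatin (0.0561; 0.0628 without trend and robust fitting) lost their calls, as did TNFRSF10A-DT with osimertinib (0.0877). The block ended the calls of TNFRSF10A-DT with osimertinib (adjusted p = 0.059) and of IL36RN between the drugs (0.0722) and no other member call of the 12. Calls gained among the 12 were IL1RN with cisplatin, IL18 and IL7R with osimertinib, IL24 between the drugs and TNFRSF10A-DT with cisplatin, each under 1 or 2 settings given beside its values. Below the limit, cisplatin calls went from 1 to 0 with the replicate block and 0 to 1 on leaving out arrays, and osimertinib calls from 0 to 1 without trend and robust fitting and 0 to 1 on leaving out arrays. Signalling genes called were 5 to 15 with cisplatin and 4 to 14 with osimertinib on leaving out arrays, and 20 with osimertinib after centring arrays on the median. All genes called between the drugs, 130, became 217 with quantile normalization on top, 239 with centring, 76 without a level limit, 63 without trend and robust fitting and 54 to 147 on leaving out arrays. Quantile normalization on top split the calls into 1968 higher and 974 lower with cisplatin (1227 and 1081 otherwise) and 2004 and 932 with osimertinib (1255 and 1022). The difference between the drugs changed sign on leaving out arrays for IL11 (-0.061 to 0.0315) and TNFRSF10A-DT (-0.0114 to 0.0983), neither of which was called. The cause of these changes was not tested.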

Other observations

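Many of the dim levels were exactly equal to each other. The value 1.75 (1.75487) occurred 11 times among the members, in IL21, IL23R and IL33, and in 80 named genes over all 9 arrays. The value 2.03 (2.03435) occurred 9 times, in IL15, IL18RAP and IL37, and in 141 named genes, and IL15 held it on 7 of 9 arrays. Of the 279 values of the 31 members below the level limit, 30.8% equalled another member value, against 14.8% of the 108 values of the 12 members above it. Within a group, 16 of the 31 dim members and 3 of the 12 others had 2 or more equal arrays, against 42.4% of all genes below the limit and 25.7% of those above. Equal values shrink the spread within a group and bound what the dim rows can show. The second row of TNFRSF10A-DT, which was dimmer, held 4.13 on 3 arrays, 1 in each group.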
